A study of Mus musculus with 9 samples.

Results

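The 33 genes described here make cholesterol and fatty acids, sense sterols or export cholesterol. They were chosen by name as annotated members of these pathways, though with earlier results of these data known. All 33 were in the count table of 56860 genes, and all 33 were among the 15292 genes with enough counts to be tested. By role they were 7 genes of the mevalonate steps, 11 of the squalene and sterol steps, 5 of sterol regulation, 8 of fatty acid synthesis and 2 cholesterol exporters. They were measured by sequencing polyadenylated RNA of mouse CD8+ T cells taken from B16-OVA tumours, a transplanted melanoma that expresses ovalbumin as a foreign antigen, although the series description names the parent line B16F10. The mice were wild type and received no treatment. Cells were sorted on the surface level of α2,6-linked sialoglycans, sugars capped by sialic acid, and on PD-1, an inhibitory receptor of activated T cells. The 3 groups were sialoglycan-low PD-1-positive cells (SiaLo_PD1pos), sialoglycan-high PD-1-positive cells (SiaHi_PD1pos) and sialoglycan-high PD-1-negative cells (SiaHi_PD1neg), with 3 libraries each. No label says that replicates were separate animals or sorts. Each p-value reflects how far libraries scatter within their groups, in a fit shared by all 9 libraries, and this could be technical scatter alone.

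Cholesterol is built from acetyl-CoA through mevalonate, farnesyl diphosphate and squalene, and fatty acids are built from the same acetyl-CoA through malonyl-CoA. When sterols in the endoplasmic reticulum run low, the escort protein SCAP carries the precursors of the transcription factors SREBP1 and SREBP2, encoded by Srebf1 and Srebf2, to the Golgi, where they are cut and freed to switch on most of these genes. When sterols are plentiful, INSIG proteins hold SCAP back, and oxysterol-sensing LXR receptors raise the exporters ABCA1 and ABCG1. Activated T cells are known to raise this programme as they grow and divide, while macrophages and dendritic cells use it and the export arm to handle lipid taken up from their surroundings.

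Levels are in CPM, the count of a gene per 1000000 counts of its library after TMM scaling, and total counts were 9714020 to 15030442 per library. RNA related to the sorted markers ran in the direction of the labels, although RNA of an enzyme is not the surface sialoglycan sorted on. Pdcd1, which encodes PD-1, averaged 1122 CPM in SiaLo_PD1pos, 899 CPM in SiaHi_PD1pos and 54.9 CPM in SiaHi_PD1neg, and St6gal1, the main α2,6-sialyltransferase, 12.3 CPM in SiaLo_PD1pos, 63.8 CPM in SiaHi_PD1pos and 98.6 CPM in SiaHi_PD1neg. The libraries labelled SiaHi_PD1neg stood apart in the genes that define the sorted cell type. Cd8a had 1720.2, 1755 and 1547 CPM in SiaLo_PD1pos, 1418, 1489 and 1351 CPM in SiaHi_PD1pos, and 414, 491 and 428 CPM in SiaHi_PD1neg. Cd3e, a chain of the T cell receptor complex, had 414, 438 and 399.7 CPM in SiaLo_PD1pos, 359, 376 and 344 CPM in SiaHi_PD1pos, and 67.4, 59.9 and 56.4 CPM in SiaHi_PD1neg. In both genes the 3 SiaHi_PD1neg libraries lay below all 6 PD-1-positive libraries. The 10 T cell core genes summed to 6370.2 to 7166 CPM in SiaLo_PD1pos, 5645 to 7316 CPM in SiaHi_PD1pos and 1610.1 to 1753 CPM in SiaHi_PD1neg. Each comparison used the quasi-likelihood F test of edgeR across all tested genes, and a gene counts as called when its p, adjusted by Benjamini-Hochberg, is under 0.05. All 10 T cell core genes were called higher in each PD-1-positive group with TMM scaling, which chooses library factors on the premise that most genes are level.

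**Figure D1:**
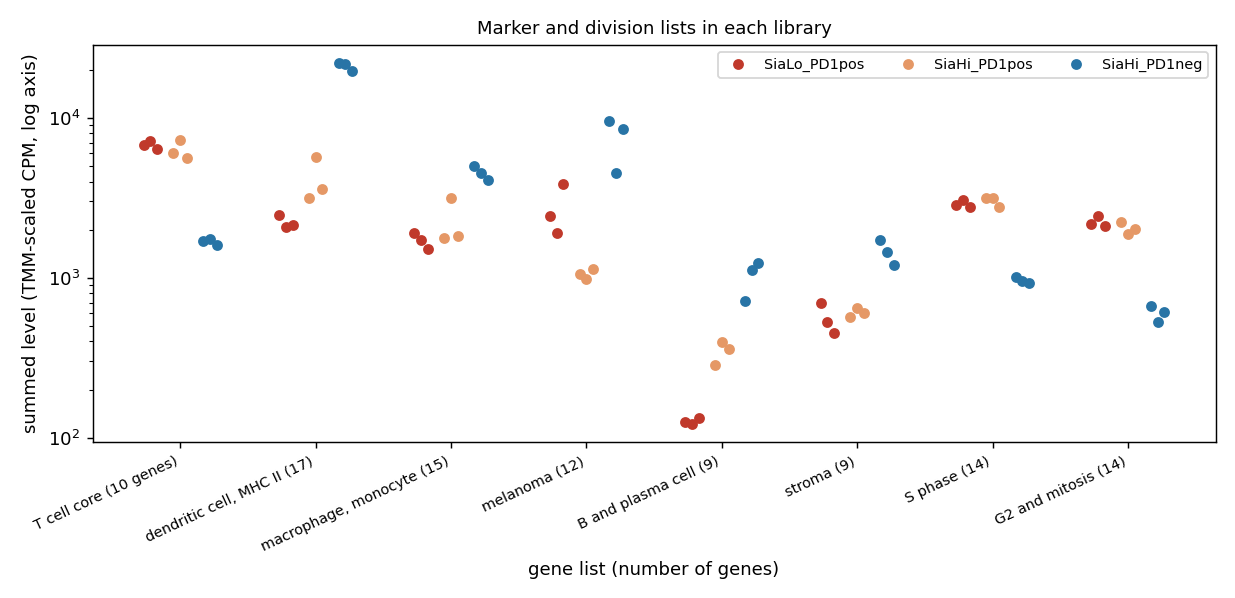
Summed TMM-scaled CPM on a log axis of lists of marker or cell division genes, with 1 point per library coloured by sorted group. The SiaHi_PD1neg points lie lowest for T cell core, S phase and G2 and mitosis genes and highest for the lists of dendritic cells, macrophages, melanoma, B cells and stroma.

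Markers of other cells ran the opposite way. The 17 dendritic cell and MHC class II genes summed to 2088 to 2467 CPM in SiaLo_PD1pos, 3149.7 to 5677 CPM in SiaHi_PD1pos and 19689.9 to 22131 CPM in SiaHi_PD1neg, the 15 macrophage and monocyte genes to 1522 to 1901 CPM in SiaLo_PD1pos, 1762 to 3173 CPM in SiaHi_PD1pos and 4064 to 4974 CPM in SiaHi_PD1neg, and the 12 melanoma genes to 1905 to 3832 CPM in SiaLo_PD1pos, 979.9 to 1137 CPM in SiaHi_PD1pos and 4513 to 9498 CPM in SiaHi_PD1neg. None of these genes was at 0 in a whole group. The 9 stroma genes summed to 455 to 692 CPM in SiaLo_PD1pos, 569.9 to 650.4 CPM in SiaHi_PD1pos and 1203 to 1724 CPM in SiaHi_PD1neg, and the 9 B and plasma cell genes to 123 to 132 CPM in SiaLo_PD1pos, 285 to 394 CPM in SiaHi_PD1pos and 715 to 1229 CPM in SiaHi_PD1neg. The 6 genes of CD4+ and regulatory T cells summed to 908 to 949.5 CPM in SiaLo_PD1pos, 1066 to 1210 CPM in SiaHi_PD1pos and 551 to 713 CPM in SiaHi_PD1neg, where the sum was lowest. Single genes did not all follow the sum. Against SiaHi_PD1neg, 3 were called higher and 1 lower in SiaHi_PD1pos, and 2 higher and 4 lower in SiaLo_PD1pos (median log2 -1.49). Genes of DNA replication (14) summed to 2771 to 3079.7 CPM in SiaLo_PD1pos, 2785 to 3174 CPM in SiaHi_PD1pos and 924 to 1006 CPM in SiaHi_PD1neg, and genes of G2 and mitosis (14) to 2099 to 2442 CPM in SiaLo_PD1pos, 1886 to 2221 CPM in SiaHi_PD1pos and 526 to 668 CPM in SiaHi_PD1neg. These lists moved with every difference against SiaHi_PD1neg given here, and their part in those differences was not tested. In bulk RNA, fewer cells of a type and less RNA per cell cannot be told apart.

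The 2 PD-1-positive groups, which differ in sialoglycan, gave no call among the lipid genes when set against each other, whereas against SiaHi_PD1neg many of these genes were lower in both, Fads2, Msmo1, Fdps and the exporter Abca1 among them. SiaLo_PD1pos against SiaHi_PD1pos gave 0 calls among the 33 genes, against a background of 1.4% called among all tested genes (0.268% higher and 1.13% lower). SiaHi_PD1pos against SiaHi_PD1neg gave 3 genes higher, 14 lower and 16 not called, where 40.2% of all tested genes were called, 21% higher and 19.2% lower. SiaLo_PD1pos against SiaHi_PD1neg gave 3 higher, 18 lower and 12 not called, where 39.4% of all tested genes were called, 20.5% higher and 18.9% lower. Lower calls thus made up 42.4% and 54.5% of the 33 genes in these 2 comparisons, and higher calls 9.09% in each. The median log2 fold change of the 33 genes was -0.44 in SiaHi_PD1pos and -0.52 in SiaLo_PD1pos against SiaHi_PD1neg, and that of all tested genes was 0.023 and 0.011. The 2 comparisons share the 3 SiaHi_PD1neg libraries, so their likeness is not independent evidence.

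**Figure D2:**
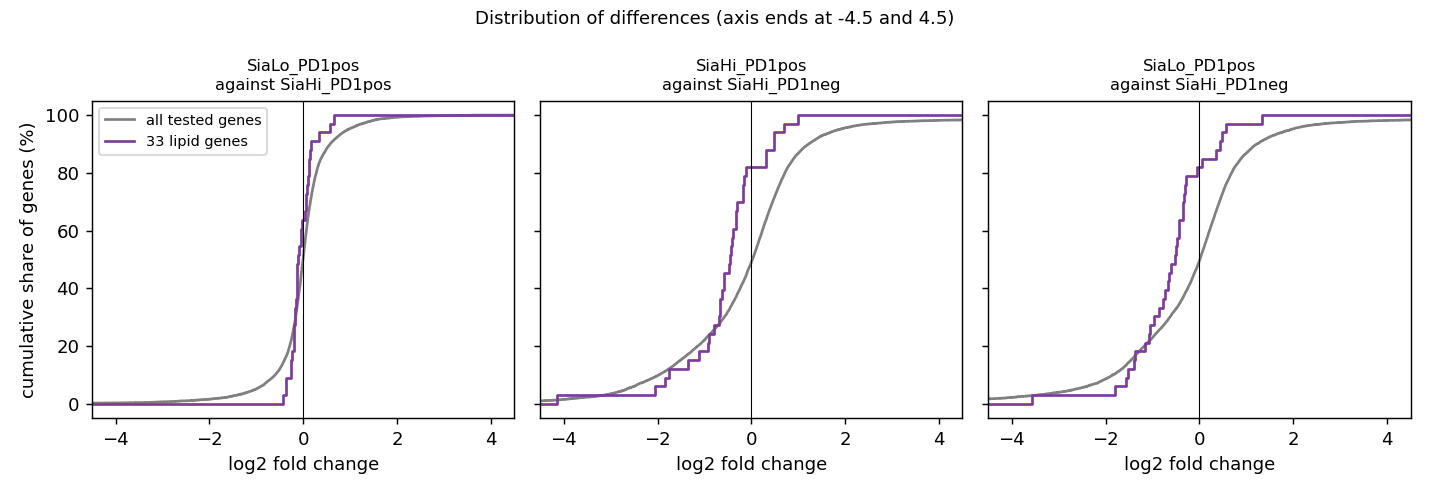
Cumulative share of genes (%) by log2 fold change for the 33 lipid genes and for all tested genes, with 1 panel per comparison and the axis ending at -4.5 and 4.5. In both comparisons against SiaHi_PD1neg 27 of the 33 genes lie below 0, whereas in SiaLo_PD1pos against SiaHi_PD1pos the lipid genes stay between -0.44 and 0.66.

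The direction of a change against SiaHi_PD1neg rests on how libraries are scaled. With library factors set from the 10 T cell core genes, the median of all tested genes moved by -1.89 in SiaHi_PD1pos and -2.002 in SiaLo_PD1pos against SiaHi_PD1neg, and all 33 lipid genes were then lower in both comparisons. Of all calls, 2.25% were then higher in SiaHi_PD1pos and 2.19% in SiaLo_PD1pos, against 52.3% and 52% with TMM scaling, and between SiaLo_PD1pos and SiaHi_PD1pos 5.09%, against 19.2%. New library factors move every gene of a comparison by nearly the same amount. Values relative to the median of all tested genes are therefore bound to stay close, and their likeness is no separate evidence. On that footing the lipid genes' median was -0.47 with TMM scaling and -0.45 with T cell core scaling in SiaHi_PD1pos, and -0.53 with either in SiaLo_PD1pos. Of the changes given here with TMM scaling, the lower calls kept their direction under T cell core scaling, and the higher calls of Ebp, Stard4 and Acly turned to lower. A downward shift of this size fixes both outcomes in advance, so the kept direction is no further evidence.

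**Figure D3:**
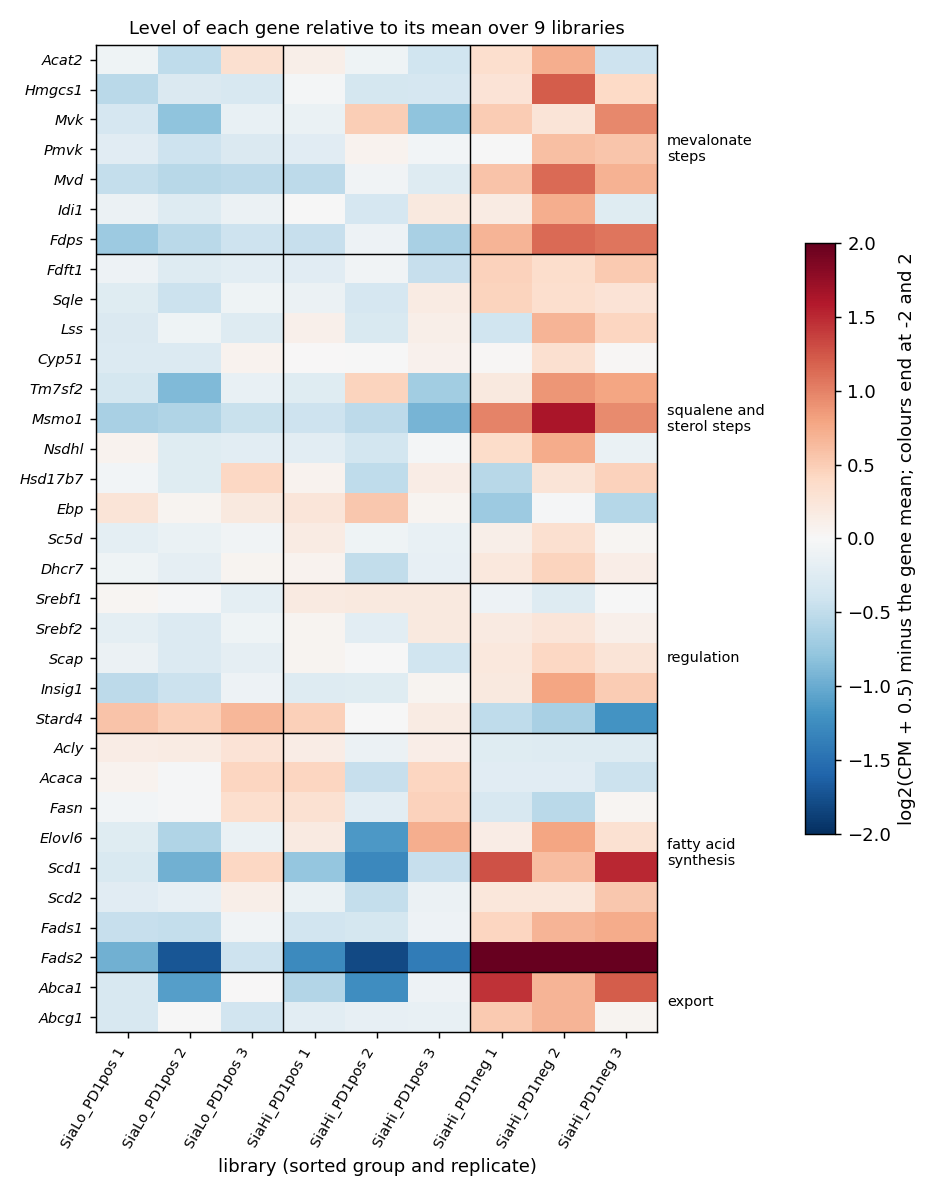
Level of each of the 33 genes in each of the 9 libraries, as log2(CPM + 0.5) minus the gene's mean over the libraries, in rows grouped by role, with colours ending at -2 and 2. Fads2 and Msmo1 are highest in the 3 SiaHi_PD1neg libraries, Stard4 is lowest there with TMM scaling, and the 6 PD-1-positive libraries look alike.

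The submitters set SiaLo_PD1pos against SiaHi_PD1pos to ask whether α2,6-sialylation goes with a different phenotype of tumour CD8+ T cells. None of the 33 lipid genes passed the test between them, and the libraries of the 2 groups overlapped for all but Pmvk and Srebf1, both lower in SiaLo_PD1pos in every library. These 2 of 33 compare with 19.4% of all tested genes whose libraries did not overlap. For Pmvk the gap was very narrow, with 34.1 CPM in the highest SiaLo_PD1pos library and 34.2 CPM in the lowest SiaHi_PD1pos library. Against SiaHi_PD1neg 19 of the 33 did not overlap in SiaHi_PD1pos and 25 in SiaLo_PD1pos, where 47.5% and 54.4% of all tested genes did not. The smallest adjusted p was 0.677, and 0 genes reached an unadjusted p under 0.05 in edgeR's quasi-likelihood test and in DESeq2. limma-voom with sample quality weights gave 0 adjusted calls and 8 genes with an unadjusted p under 0.05, all lower in SiaLo_PD1pos (Elovl6, Cyp51, Sc5d, Lss, Srebf1, Fasn, Hmgcs1 and Srebf2). The fit of all 9 libraries also drew its spread from SiaHi_PD1neg, the group whose libraries scattered most. As a coefficient of variation over all tested genes, edgeR's spread was 0.132 in SiaLo_PD1pos, 0.288 in SiaHi_PD1pos and 0.490 in SiaHi_PD1neg. A fit of only the 6 libraries compared gave 0 adjusted calls and 1 gene with an unadjusted p under 0.05, Stard4, which was higher in SiaLo_PD1pos. For 28 of the 33 genes the 95% interval of the difference stayed within 2-fold in either direction, and the exceptions were Mvk, Tm7sf2, Elovl6, Scd1 and Fads2. The median log2 fold change was -0.12, and that of all tested genes was -0.0063. The greatest differences were those of Scd1 (log2 0.66, 95% interval -0.14 to 1.45) and Fads2 (0.58, -0.07 to 1.22), both low in these cells, and of Elovl6 (-0.44, -1.24 to 0.37). None of these passed the test, and the intervals leave room for differences over 2-fold in each of them. In the same comparison 10 of the 17 dendritic cell genes were called lower in SiaLo_PD1pos, and 16 had a negative log2 fold change (median -1.04). Lower calls were also 4 of the 6 tested genes of B and plasma cells and 3 of the 6 genes of CD4+ and regulatory T cells (median log2 -1.71). All 12 melanoma genes had a positive log2 fold change, from 1.06 to 1.46, and 4 of them were called higher. Over all tested genes 1.13% were called lower and 0.268% higher. The part of these marker genes in the lipid gene values was not tested.

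**Figure D4:**
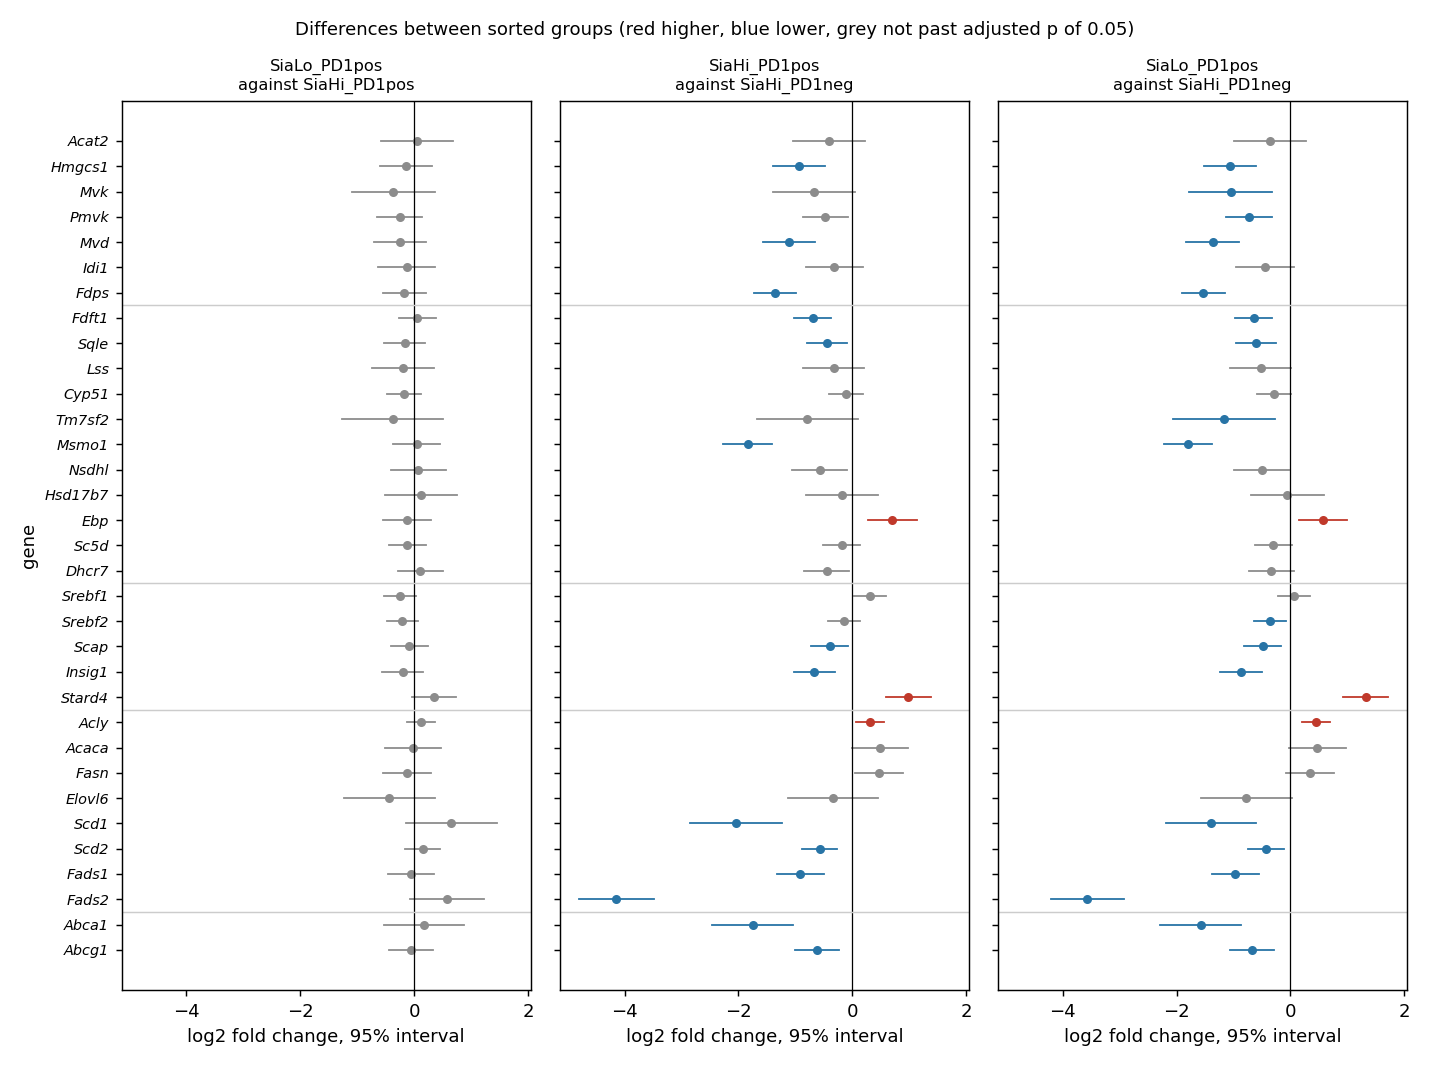
Log2 fold change with its 95% interval for each of the 33 genes in the 3 comparisons, with genes called higher in red, called lower in blue and not called in grey, all with TMM scaling. All intervals of SiaLo_PD1pos against SiaHi_PD1pos include 0, and the 3 red genes (Ebp, Stard4 and Acly) turn to lower with T cell core scaling.

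All 7 mevalonate genes had a negative log2 fold change in both comparisons, 3 fell in SiaHi_PD1pos (median -0.68) and 5 fell in SiaLo_PD1pos (median -1.04). These lower calls were 42.9% and 71.4% of the 7, against 19.2% and 18.9% of all tested genes. In the deposited table's own coordinates, whose build is not known, Fdps lay on chromosome 3 from 89000895 to 89009266, Msmo1 on chromosome 8 from 65171173 to 65186826 and Fads2 on chromosome 19 from 10040129 to 10079110. Fdps, which makes the farnesyl diphosphate used for sterols, protein prenylation and other isoprenoids, had 45.9, 52.1 and 57.0 CPM in SiaLo_PD1pos, 55.1, 71.1 and 48.2 CPM in SiaHi_PD1pos, and 122, 166 and 159 CPM in SiaHi_PD1neg. Each SiaHi_PD1neg library was well above all 6 PD-1-positive libraries. Fdps was 2.56-fold lower in SiaHi_PD1pos (log2 -1.36, SE 0.17, adjusted p = 4.18e-05) and 2.89-fold lower in SiaLo_PD1pos (log2 -1.53, SE 0.18, adjusted p = 1.29e-05). Mvd, which decarboxylates mevalonate diphosphate to isopentenyl diphosphate, had 15.1, 14.3 and 14.6 CPM in SiaLo_PD1pos, 14.6, 20.1 and 17.7 CPM in SiaHi_PD1pos, and 31.8, 47.1 and 34.5 CPM in SiaHi_PD1neg. It was 2.17-fold lower in SiaHi_PD1pos (log2 -1.12, SE 0.21, adjusted p = 9.97e-04) and 2.58-fold lower in SiaLo_PD1pos (log2 -1.37, SE 0.21, adjusted p = 2.12e-04), again with no overlap with SiaHi_PD1neg.

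Hmgcs1, the synthase that makes HMG-CoA, had 99.6, 119 and 115 CPM in SiaLo_PD1pos, 140.3, 113 and 114 CPM in SiaHi_PD1pos, and 174, 335 and 189.8 CPM in SiaHi_PD1neg. All SiaHi_PD1neg libraries were above the others, but replicate 2 was far above its own group. Hmgcs1 fell in SiaHi_PD1pos (log2 -0.93, SE 0.21, adjusted p = 0.00338) and in SiaLo_PD1pos (log2 -1.07, SE 0.21, adjusted p = 0.00132). Without SiaHi_PD1neg replicate 2 its log2 fold changes were -0.54 and -0.67, still called. Mvk, mevalonate kinase, had 10.6, 7.58 and 12.2 CPM in SiaLo_PD1pos, 12.4, 19.2 and 7.55 CPM in SiaHi_PD1pos, and 19.5, 16.3 and 26.8 CPM in SiaHi_PD1neg, and SiaHi_PD1pos replicate 2 reached into the SiaHi_PD1neg range. Pmvk, the kinase of the next step, had 34.1, 29.9 and 32.5 CPM in SiaLo_PD1pos, 34.2, 42.2 and 38.7 CPM in SiaHi_PD1pos, and 39.6, 61.0 and 59.1 CPM in SiaHi_PD1neg, with SiaHi_PD1pos replicate 2 above SiaHi_PD1neg replicate 1. Both fell in SiaLo_PD1pos, with log2 fold changes of -1.04 for Mvk (adjusted p = 0.0256) and -0.73 for Pmvk (adjusted p = 0.00712). In SiaHi_PD1pos they were at -0.68 (adjusted p = 0.126) and -0.47 (adjusted p = 0.0565). The Mvk call was lost without SiaLo_PD1pos replicate 1, SiaLo_PD1pos replicate 2 or SiaHi_PD1neg replicate 3, with adjusted p up to 0.126, and the Pmvk call without SiaLo_PD1pos replicate 2, at 0.0507. Acat2, which condenses acetyl-CoA at the entry of the pathway, and Idi1, the isopentenyl diphosphate isomerase, were not called in any comparison, and their log2 fold changes against SiaHi_PD1neg were -0.44 to -0.31.

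**Figure D5:**
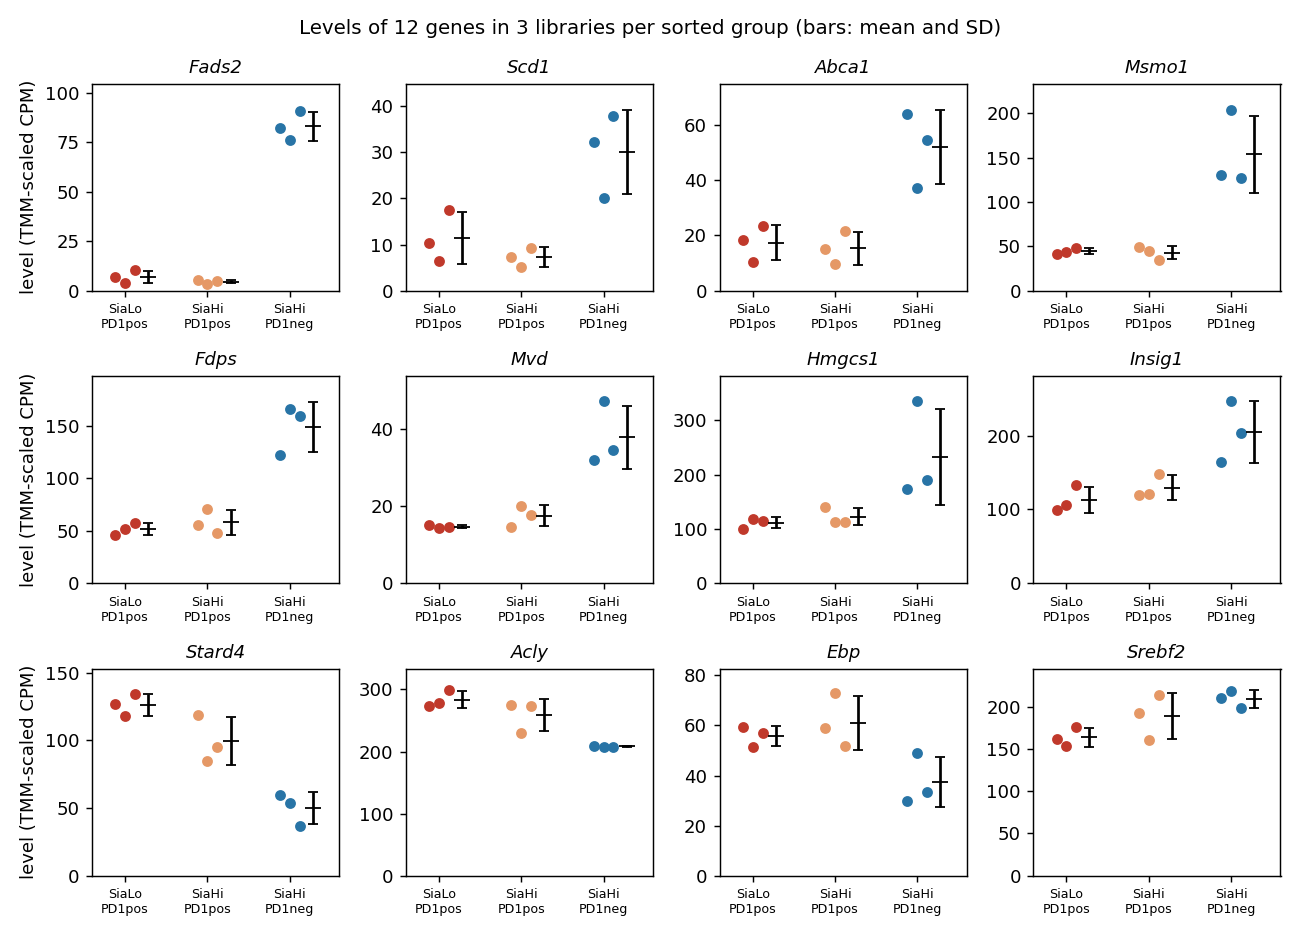
TMM-scaled CPM of 12 of the 33 genes in each library, with points for the 3 libraries of a sorted group and bars for the mean and SD. Fads2, Msmo1 and Fdps lie far higher in SiaHi_PD1neg, and Stard4 lies higher in both PD-1-positive groups with TMM scaling, though not with T cell core scaling.

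The 11 squalene and sterol genes were mixed. In SiaHi_PD1pos against SiaHi_PD1neg 3 fell, 1 rose with TMM scaling and 7 were not called (median -0.44), and in SiaLo_PD1pos 4 fell, 1 rose with TMM scaling and 6 were not called (median -0.50). Calls were thus 36.4% and 45.5% of the 11, near the 40.2% and 39.4% of all tested genes. Lower calls were 27.3% and 36.4%, against 19.2% and 18.9% of all tested genes. Msmo1, the sterol methyl oxidase that starts the removal of methyl groups from the sterol ring, had 41.7, 43.2 and 48.1 CPM in SiaLo_PD1pos, 49.3, 45.3 and 34.4 CPM in SiaHi_PD1pos, and 131, 204 and 127 CPM in SiaHi_PD1neg. The SiaHi_PD1neg libraries all lay far above the PD-1-positive libraries, which overlapped one another. Msmo1 was 3.58-fold lower in SiaHi_PD1pos (log2 -1.84, SE 0.20, adjusted p = 9.36e-06) and 3.47-fold lower in SiaLo_PD1pos (log2 -1.80, SE 0.20, adjusted p = 9.16e-06). Its partners in the same demethylation, Nsdhl and Hsd17b7, did not pass the test. Nsdhl was at -0.57 in SiaHi_PD1pos (adjusted p = 0.0568) and -0.50 in SiaLo_PD1pos (adjusted p = 0.0942), and Hsd17b7 at -0.18 and -0.05 in the same comparisons.

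Fdft1, squalene synthase, which commits farnesyl diphosphate to sterols, had 43.8, 39.5 and 40.5 CPM in SiaLo_PD1pos, 40.4, 44.7 and 34.1 CPM in SiaHi_PD1pos, and 65.0, 60.4 and 67.9 CPM in SiaHi_PD1neg. Sqle, squalene epoxidase, had 41.2, 36.2 and 46.2 CPM in SiaLo_PD1pos, 44.8, 38.7 and 54.8 CPM in SiaHi_PD1pos, and 66.5, 62.2 and 59.1 CPM in SiaHi_PD1neg. Neither gene overlapped between SiaHi_PD1neg and the PD-1-positive libraries, although the Sqle groups lay close together. Fdft1 fell in SiaHi_PD1pos (log2 -0.70, SE 0.15, adjusted p = 0.00238) and in SiaLo_PD1pos (log2 -0.64, SE 0.15, adjusted p = 0.00417). Sqle fell less, with -0.44 (adjusted p = 0.0474) in SiaHi_PD1pos and -0.61 (adjusted p = 0.0106) in SiaLo_PD1pos. The Sqle call in SiaHi_PD1pos was lost in 8 of the 9 fits that left out 1 library (adjusted p up to 0.148), all but the fit without SiaHi_PD1pos replicate 3, and the call in SiaLo_PD1pos was lost without SiaLo_PD1pos replicate 2 (0.0851). Fdft1 shares 774 exon bases, 18.8% of its length, with Ctsb on the opposite strand, a protease gene with 124371 counts in all libraries against 5602 of Fdft1. Ctsb itself was lower in SiaHi_PD1pos (log2 -1.32) and SiaLo_PD1pos (-1.21), and whether counting used strand is not stated in the labels or notes, so the Fdft1 values are uncertain.

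Ebp, the sterol isomerase that moves the ring double bond, ran against most of the pathway, with 59.3, 51.5 and 56.8 CPM in SiaLo_PD1pos, 58.8, 72.9 and 51.6 CPM in SiaHi_PD1pos, and 30.0, 48.8 and 33.5 CPM in SiaHi_PD1neg. SiaHi_PD1neg replicate 2 came just below the lowest PD-1-positive libraries, and the groups did not overlap. With TMM scaling Ebp rose in SiaHi_PD1pos (log2 0.71, SE 0.20, adjusted p = 0.0114) and in SiaLo_PD1pos (log2 0.58, SE 0.20, adjusted p = 0.0323), while T cell core scaling gave -1.20 and -1.42. The call in SiaLo_PD1pos was lost without SiaLo_PD1pos replicate 1 or 3 or SiaHi_PD1neg replicate 1 or 3 (adjusted p up to 0.0956). Tm7sf2, a sterol reductase that shares its reaction with the lamin B receptor Lbr, was among the lowest of the 33 per length, with 4.63, 3.03 and 5.36 CPM in SiaLo_PD1pos, 5.02, 8.34 and 3.54 CPM in SiaHi_PD1pos, and 6.92, 11.6 and 10.8 CPM in SiaHi_PD1neg. Its groups overlapped between SiaHi_PD1pos and SiaHi_PD1neg, and it was called lower in SiaLo_PD1pos (log2 -1.17, SE 0.42, adjusted p = 0.0390), where the call was lost in 6 of 9 fits, those without SiaLo_PD1pos replicate 1, 2 or 3, SiaHi_PD1pos replicate 1, or SiaHi_PD1neg replicate 2 or 3 (adjusted p up to 0.171). It shares 1396 exon bases, 31.7% of its length, with Vps51 on the same strand, which makes its level uncertain. Lanosterol synthase (Lss), lanosterol demethylase (Cyp51), the desaturase Sc5d and the reductase Dhcr7, which forms cholesterol at the end of the pathway, were not called, with log2 fold changes from -0.52 to -0.11 against SiaHi_PD1neg. Cyp51 shares 166 exon bases, 3.76% of its length, with Akap9 on the opposite strand.

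Promoter windows, 250 bases before to 50 after each gene's start, were taken from RefSeq (GRCm38.p6) because most of these genes are textbook targets of SREBP, which binds sterol response elements beside sites of the factors NF-Y and SP1. The table held 31 windows of 25 of the 33 genes. The letters TCACNCCAC, a sterol response element, were searched on both strands and found in 1 of 31 windows, that of Hmgcs1, and in 1.24% of all 32851 windows. CCAAT, the NF-Y box, was in 20 of 31 windows (64.52%) and in 37.41% of all windows. GGGCGG, the SP1 box, was in 24 (77.42%) and in 35.66% of all, and CACGTG, an E-box, in 7 (22.58%) and in 7.15% of all. None of these motifs contains another, though matches may overlap. A match describes letters only. The 4 windows shown are those of Hmgcs1 and Msmo1, which fell, Ebp, which rose with TMM scaling, and Fads2, which fell most, with capitals for TCACNCCAC and for CCAAT on either strand, where ATTGG is CCAAT on the opposite strand. They lie at chr13:119690101-119690400 on the plus strand, chr8:64733529-64733828 on the minus strand, chrX:8193463-8193762 on the minus strand and chr19:10101454-10101753 on the minus strand.
Hmgcs1: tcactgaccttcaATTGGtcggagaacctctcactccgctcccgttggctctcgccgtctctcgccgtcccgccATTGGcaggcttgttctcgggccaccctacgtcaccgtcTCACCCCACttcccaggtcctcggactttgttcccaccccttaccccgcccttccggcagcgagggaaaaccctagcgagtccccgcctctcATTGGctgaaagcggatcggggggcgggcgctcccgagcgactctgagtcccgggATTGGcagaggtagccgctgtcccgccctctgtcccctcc
Msmo1: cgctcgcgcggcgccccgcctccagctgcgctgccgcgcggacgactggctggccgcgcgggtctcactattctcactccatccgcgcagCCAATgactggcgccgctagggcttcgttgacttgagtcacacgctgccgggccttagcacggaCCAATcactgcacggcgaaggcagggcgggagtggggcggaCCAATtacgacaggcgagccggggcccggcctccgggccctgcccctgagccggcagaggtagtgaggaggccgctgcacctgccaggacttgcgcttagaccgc
Ebp: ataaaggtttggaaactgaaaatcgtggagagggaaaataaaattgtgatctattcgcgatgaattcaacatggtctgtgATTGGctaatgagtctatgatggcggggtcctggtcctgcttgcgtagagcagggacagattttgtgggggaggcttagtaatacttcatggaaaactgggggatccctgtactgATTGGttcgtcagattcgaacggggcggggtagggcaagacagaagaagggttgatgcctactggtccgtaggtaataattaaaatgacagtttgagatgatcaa
Fads2: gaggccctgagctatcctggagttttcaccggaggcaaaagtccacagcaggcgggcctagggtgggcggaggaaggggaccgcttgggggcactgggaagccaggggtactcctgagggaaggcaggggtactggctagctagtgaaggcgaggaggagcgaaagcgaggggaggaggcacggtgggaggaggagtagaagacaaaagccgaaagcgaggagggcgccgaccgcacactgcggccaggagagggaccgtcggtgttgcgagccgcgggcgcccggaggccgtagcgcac
The Hmgcs1 window held the sterol response letters 137 bases before the start and 4 CCAAT boxes, the Msmo1 window 3 and the Ebp window 2, so that a gene called lower and a gene called higher with TMM scaling both held them. The Fads2 window held none of the capitalised letters, which says nothing about sites outside it.

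Of the 5 regulators, 2 fell, 1 rose with TMM scaling and 2 were not called in SiaHi_PD1pos against SiaHi_PD1neg, and 3 fell, 1 rose with TMM scaling and 1 was not called in SiaLo_PD1pos. Calls in either direction were 60% and 80% of the 5, against 40.2% and 39.4% of all tested genes. Insig1, which retains SCAP in the endoplasmic reticulum and is itself switched on by SREBP, had 99.0, 106 and 133 CPM in SiaLo_PD1pos, 119, 120.4 and 149 CPM in SiaHi_PD1pos, and 164, 247 and 204 CPM in SiaHi_PD1neg. Its groups did not overlap, and it fell in SiaHi_PD1pos (log2 -0.66, SE 0.17, adjusted p = 0.00670) and in SiaLo_PD1pos (log2 -0.87, SE 0.17, adjusted p = 0.00117). Stard4, which carries cholesterol between membranes in the cytosol and is known in mice as an SREBP target, had 126, 118 and 134 CPM in SiaLo_PD1pos, 119, 84.5 and 94.9 CPM in SiaHi_PD1pos, and 59.5, 54.1 and 36.8 CPM in SiaHi_PD1neg. All 6 PD-1-positive libraries lay above the 3 SiaHi_PD1neg libraries. With TMM scaling Stard4 was 1.98-fold higher in SiaHi_PD1pos (log2 0.98, SE 0.18, adjusted p = 7.91e-04) and 2.51-fold higher in SiaLo_PD1pos (log2 1.33, SE 0.18, adjusted p = 6.89e-05), while T cell core scaling gave log2 -0.89 and -0.67. Relative to the median of all tested genes it was at 0.98 in SiaHi_PD1pos and 1.32 in SiaLo_PD1pos under T cell core scaling. The 0.96 and 1.32 of TMM scaling are close by construction, since scaling moves all genes by nearly the same amount.

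Srebf2, the sterol-pathway SREBP, had 162, 153 and 175 CPM in SiaLo_PD1pos, 192, 160.1 and 214 CPM in SiaHi_PD1pos, and 209.7, 219 and 199 CPM in SiaHi_PD1neg. SiaLo_PD1pos lay wholly below SiaHi_PD1neg, while SiaHi_PD1pos replicate 3 lay within its range. Srebf2 fell in SiaLo_PD1pos (log2 -0.35, SE 0.13, adjusted p = 0.0427) and was at -0.15 in SiaHi_PD1pos (adjusted p = 0.394). The call was lost in 7 of 9 fits, all but those without SiaHi_PD1pos replicate 2 or 3 (adjusted p up to 0.233). Srebf1, the SREBP that favours fatty acid genes, had 70.6, 68.0 and 60.1 CPM in SiaLo_PD1pos, 78.4, 79.3 and 78.9 CPM in SiaHi_PD1pos, and 64.3, 57.4 and 68.5 CPM in SiaHi_PD1neg. Its SiaHi_PD1pos libraries lay above those of both other groups, which overlapped. Srebf1 shares 432 exon bases, 7.67% of its length, with Rai1 on the opposite strand, and whether counting used strand is not stated. Rai1 had 5872 counts in all libraries against 8097 of Srebf1. Srebf1 passed no test, with 0.31 (adjusted p = 0.0745) in SiaHi_PD1pos and 0.06 (adjusted p = 0.744) in SiaLo_PD1pos with TMM scaling, against -1.58 and -1.95, both called, with T cell core scaling. Scap had 59.7, 53.3 and 57.0 CPM in SiaLo_PD1pos, 67.2, 64.4 and 49.0 CPM in SiaHi_PD1pos, and 75.1, 86.1 and 76.9 CPM in SiaHi_PD1neg. Every SiaHi_PD1neg library was above the others. Scap was called lower in SiaHi_PD1pos (log2 -0.40, SE 0.15, adjusted p = 0.0487) and SiaLo_PD1pos (log2 -0.49, SE 0.15, adjusted p = 0.0202). The call in SiaHi_PD1pos was lost in all 9 fits that left out 1 library (adjusted p up to 0.209), with the log2 fold change at -0.25 without SiaHi_PD1pos replicate 3, and the call in SiaLo_PD1pos without SiaLo_PD1pos replicate 1, 2 or 3 or SiaHi_PD1neg replicate 2 (0.124).

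Among the fatty acid synthesis genes the desaturases fell, and no other gene passed the test as lower with TMM scaling. In each comparison against SiaHi_PD1neg 4 of the 8 genes fell, all of them desaturases, 1 rose with TMM scaling and 3 were not called. Calls were 62.5% of the 8 in each, against 40.2% of all tested genes in SiaHi_PD1pos and 39.4% in SiaLo_PD1pos. Fads2, which opens the conversion of dietary polyunsaturated fatty acids to longer ones, had 6.91, 3.90 and 10.3 CPM in SiaLo_PD1pos, 5.46, 3.62 and 4.96 CPM in SiaHi_PD1pos, and 82.3, 76.1 and 90.7 CPM in SiaHi_PD1neg. The SiaHi_PD1neg libraries were all at 76.1 CPM or more, and no PD-1-positive library passed 10.3 CPM. Fads2 was 17.7-fold lower in SiaHi_PD1pos (log2 -4.14, SE 0.31, adjusted p = 4.11e-07) and 11.9-fold lower in SiaLo_PD1pos (log2 -3.57, SE 0.30, adjusted p = 6.62e-07), the greatest change of the 33 genes in both comparisons. Its neighbour on chromosome 19 and partner in the same pathway, Fads1, had 19.4, 19.4 and 25.7 CPM in SiaLo_PD1pos, 20.7, 21.1 and 25.2 CPM in SiaHi_PD1pos, and 36.7, 43.6 and 45.8 CPM in SiaHi_PD1neg. Fads1 also fell without overlap, in SiaHi_PD1pos (log2 -0.91, SE 0.19, adjusted p = 0.00190) and in SiaLo_PD1pos (log2 -0.97, SE 0.19, adjusted p = 0.00127), but by far less. Reads of Fads2 per read of Fads1 were 0.355, 0.201 and 0.401 in SiaLo_PD1pos, 0.264, 0.172 and 0.197 in SiaHi_PD1pos, and 2.24, 1.75 and 1.98 in SiaHi_PD1neg.

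Fads2 was also set against Cd74, the MHC class II invariant chain of dendritic cells and other antigen-presenting cells. Reads of Fads2 per read of Cd74 were 0.00885, 0.00653 and 0.0153 in SiaLo_PD1pos, 0.00533, 0.00188 and 0.00419 in SiaHi_PD1pos, and 0.0120, 0.0123 and 0.0150 in SiaHi_PD1neg. On this ratio SiaLo_PD1pos overlapped SiaHi_PD1neg, and SiaHi_PD1pos lay below both. Against Csf1r, the receptor that marks macrophages and monocytes, the ratio was 0.140, 0.0973 and 0.281 in SiaLo_PD1pos, 0.111, 0.0501 and 0.0837 in SiaHi_PD1pos, and 0.692, 0.668 and 0.875 in SiaHi_PD1neg. On that ratio neither PD-1-positive group overlapped SiaHi_PD1neg. Such ratios depend on the marker chosen. Against SiaHi_PD1neg the 17 dendritic cell genes ran from log2 -5.89 to -0.81 in SiaHi_PD1pos and from -8.38 to -1.98 in SiaLo_PD1pos. Fads2, at -4.14 and -3.57, lay inside both ranges. The summed dendritic cell markers given above moved in the same direction as Fads2, and their part in its change was not tested.

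Scd1, which introduces a double bond into saturated fatty acids, had 10.4, 6.43 and 17.6 CPM in SiaLo_PD1pos, 7.41, 5.04 and 9.29 CPM in SiaHi_PD1pos, and 32.1, 20.1 and 37.8 CPM in SiaHi_PD1neg. Scd2, its paralog nearby on chromosome 19 and the more abundant form in these cells, had 169, 176 and 213 CPM in SiaLo_PD1pos, 180.3, 141 and 181 CPM in SiaHi_PD1pos, and 231, 231 and 285 CPM in SiaHi_PD1neg. In both genes every SiaHi_PD1neg library was above every PD-1-positive library. Scd1 was 4.13-fold lower in SiaHi_PD1pos (log2 -2.05, SE 0.38, adjusted p = 7.34e-04) and 2.62-fold lower in SiaLo_PD1pos (log2 -1.39, SE 0.36, adjusted p = 0.00836). Scd2 fell less, with log2 fold changes of -0.57 (adjusted p = 0.00662) and -0.42 (adjusted p = 0.0331) in the same comparisons. The Scd2 call in SiaLo_PD1pos was lost without SiaLo_PD1pos replicate 1 or 2, SiaHi_PD1pos replicate 1, or SiaHi_PD1neg replicate 2 or 3 (adjusted p up to 0.173), with -0.28 without SiaHi_PD1neg replicate 3. Reads of Scd1 per read of Scd2 were 0.0617, 0.0366 and 0.0824 in SiaLo_PD1pos, 0.0411, 0.0357 and 0.0514 in SiaHi_PD1pos, and 0.139, 0.0870 and 0.132 in SiaHi_PD1neg. The 2 are close in sequence, so reads that match both could be split between them in counting.

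Acly, which makes cytosolic acetyl-CoA from citrate for sterols and fatty acids alike, had 274, 278 and 299 CPM in SiaLo_PD1pos, 275, 229 and 273 CPM in SiaHi_PD1pos, and 209.7, 208 and 208 CPM in SiaHi_PD1neg. The SiaHi_PD1neg libraries were nearly equal to one another and below all others. With TMM scaling Acly rose in SiaHi_PD1pos (log2 0.31, SE 0.11, adjusted p = 0.0432) and in SiaLo_PD1pos (log2 0.44, SE 0.11, adjusted p = 0.00771), while T cell core scaling gave -1.57 and -1.56. The call in SiaHi_PD1pos was lost in 7 of the 9 fits that left out 1 library, all but those without SiaLo_PD1pos replicate 3 or SiaHi_PD1pos replicate 2 (adjusted p up to 0.140). Acaca, the acetyl-CoA carboxylase that makes malonyl-CoA, was at 0.49 in SiaHi_PD1pos (adjusted p = 0.105) and 0.48 in SiaLo_PD1pos (adjusted p = 0.119). Fasn, the synthase that builds the chain, was at 0.48 (adjusted p = 0.0666) and 0.35 (adjusted p = 0.176), and the elongase Elovl6 at -0.34 (adjusted p = 0.508) and -0.77 (adjusted p = 0.119). With T cell core scaling Acaca was at -1.36 and -1.52 and Fasn at -1.40 and -1.66.

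Both cholesterol exporters fell in each comparison against SiaHi_PD1neg. Of all tested genes 19.2% were called lower in SiaHi_PD1pos and 18.9% in SiaLo_PD1pos. Abca1, which loads cholesterol onto lipid-poor apolipoprotein A-I, had 18.4, 10.5 and 23.4 CPM in SiaLo_PD1pos, 15.3, 9.52 and 21.5 CPM in SiaHi_PD1pos, and 63.8, 37.4 and 54.5 CPM in SiaHi_PD1neg. Abcg1, which passes it on to mature HDL particles, had 37.4, 46.3 and 35.5 CPM in SiaLo_PD1pos, 40.2, 41.6 and 42.3 CPM in SiaHi_PD1pos, and 67.0, 74.9 and 48.6 CPM in SiaHi_PD1neg. Neither gene overlapped between SiaHi_PD1neg and the PD-1-positive libraries, though Abcg1 came close in SiaHi_PD1neg replicate 3. Abca1 was 3.36-fold lower in SiaHi_PD1pos (log2 -1.75, SE 0.33, adjusted p = 9.44e-04) and 2.98-fold lower in SiaLo_PD1pos (log2 -1.57, SE 0.33, adjusted p = 0.00193). Abcg1 fell less, in SiaHi_PD1pos (log2 -0.62, SE 0.18, adjusted p = 0.0137) and in SiaLo_PD1pos (log2 -0.68, SE 0.18, adjusted p = 0.00876). The Abcg1 call in SiaHi_PD1pos was lost without SiaHi_PD1pos replicate 1 or SiaHi_PD1neg replicate 2 (adjusted p up to 0.0683), and that in SiaLo_PD1pos without SiaLo_PD1pos replicate 1 or 3 (0.0625). Macrophages are known to be rich in both transporters, and the 15 macrophage and monocyte genes had 13 members lower in each PD-1-positive group, the part of which in these changes was not tested.

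Across both comparisons against SiaHi_PD1neg, 17 genes were called in each and 21 in at least 1. Of all tested genes 40.2% were called in SiaHi_PD1pos and 39.4% in SiaLo_PD1pos, and the share called in both was not counted. The comparisons share the SiaHi_PD1neg libraries, so this overlap of calls is no separate result about the lipid genes. Mvk, Pmvk, Tm7sf2 and Srebf2 were called in SiaLo_PD1pos and not in SiaHi_PD1pos, and the difference between those changes is the SiaLo_PD1pos against SiaHi_PD1pos comparison, in which none of the 4 passed. The 12 genes called in no comparison were Acat2, Idi1, Lss, Cyp51, Nsdhl, Hsd17b7, Sc5d, Dhcr7, Srebf1, Acaca, Fasn and Elovl6.

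Per kilobase of the deposited gene length, Acly, Insig1 and Scd2 were among the 4 highest lipid genes in each group. Acly had 53.7 CPM per kilobase in SiaLo_PD1pos, 49.1 in SiaHi_PD1pos and 39.5 in SiaHi_PD1neg, and ranked at the top in both PD-1-positive groups. Insig1, with 36.4, 41.8 and 66.3 CPM per kilobase in the same groups, ranked at the top in SiaHi_PD1neg. Scd2 had 34.0, 30.6 and 45.6, and Hmgcs1, with 24.2, 26.6 and 50.7, ranked 6, 5 and 2. Tm7sf2 had 0.986, 1.28 and 2.22 and was the lowest in both PD-1-positive groups, while Acaca was the lowest in SiaHi_PD1neg, with 2.62, 2.65 and 1.88. The median log2 CPM of the 33 genes was 5.38, 5.31 and 5.36 in the SiaLo_PD1pos libraries, 5.35, 5.39 and 5.29 in SiaHi_PD1pos, and 5.91, 5.86 and 5.64 in SiaHi_PD1neg, so the PD-1-positive libraries were interleaved and the SiaHi_PD1neg libraries stood above them.

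Libraries of 1 group also differed among themselves in these genes. SiaHi_PD1neg replicate 2 was the highest of its group in 14 of the 18 cholesterol synthesis genes, as for Hmgcs1 and Msmo1. SiaLo_PD1pos replicate 3 was the highest of its group in all 8 fatty acid genes and in 23 of the 33, and SiaHi_PD1pos replicate 2 the lowest of its group in 7 of the 8 fatty acid genes. The median coefficient of variation of the 33 genes was 12.2% in SiaLo_PD1pos, 17.6% in SiaHi_PD1pos and 21.3% in SiaHi_PD1neg.

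Other genes of these pathways, 69 in 4 lists of which 66 were tested, gave 0 calls in SiaLo_PD1pos against SiaHi_PD1pos, with 7 at an unadjusted p under 0.05 in edgeR's quasi-likelihood test. Against SiaHi_PD1neg, 6 were higher and 21 lower in SiaHi_PD1pos, and 8 were higher and 21 lower in SiaLo_PD1pos, all with TMM scaling. These are 40.9% and 43.9% of the 66 called, near the 40.2% and 39.4% of all tested genes. Lower calls were 31.8% of the 66 in each comparison, against 19.2% and 18.9% of all tested genes. Of 18 genes of lipid uptake, transport and storage 11 fell and 1 rose in SiaHi_PD1pos (median -1.08), and 10 fell and 1 rose in SiaLo_PD1pos (median -0.97). Lower calls were 61.1% and 55.6% of these 18. Lrp8, a lipoprotein receptor, averaged 12.7 ± 0.455 CPM in SiaLo_PD1pos, 13.9 ± 0.963 CPM in SiaHi_PD1pos and 158 ± 63.1 CPM in SiaHi_PD1neg (mean ± SD, n = 3 here and after), and fell in SiaHi_PD1pos (log2 -3.50) and SiaLo_PD1pos (-3.63). Npc1, which releases cholesterol from lysosomes, averaged 38.2 ± 3.06 CPM in SiaLo_PD1pos, 31.8 ± 5.27 CPM in SiaHi_PD1pos and 127 ± 23.2 CPM in SiaHi_PD1neg. Plin2, the coat protein of lipid droplets, averaged 62.2 ± 1.40 CPM in SiaLo_PD1pos, 62.7 ± 10.7 CPM in SiaHi_PD1pos and 182 ± 16.7 CPM in SiaHi_PD1neg. Scarb1, the HDL receptor, averaged 23.8 ± 0.661 CPM in SiaLo_PD1pos, 28.1 ± 2.32 CPM in SiaHi_PD1pos and 77.6 ± 7.95 CPM in SiaHi_PD1neg, and Nceh1, a cholesteryl ester hydrolase, 33.3 ± 2.18 CPM in SiaLo_PD1pos, 26.4 ± 1.44 CPM in SiaHi_PD1pos and 82.1 ± 14.9 CPM in SiaHi_PD1neg. All of them passed the test as lower in both PD-1-positive groups.

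The 13 further sterol and isoprenoid genes gave counts of higher calls nearer the background with TMM scaling, with 3 higher and 1 lower in SiaHi_PD1pos and 4 higher and 0 lower in SiaLo_PD1pos. Higher calls were thus 23.1% and 30.8% of the 13, against 21% and 20.5% of all tested genes. Lbr, which can take the place of Tm7sf2 as sterol reductase and also anchors the nuclear envelope, averaged 232 ± 5.22 CPM in SiaLo_PD1pos, 213 ± 31.2 CPM in SiaHi_PD1pos and 139 ± 10.4 CPM in SiaHi_PD1neg. Nus1, a subunit of the enzyme that makes dolichol, averaged 118 ± 4.12 CPM in SiaLo_PD1pos, 120.0 ± 6.60 CPM in SiaHi_PD1pos and 88.3 ± 8.79 CPM in SiaHi_PD1neg. Both were called higher in each PD-1-positive group with TMM scaling and were lower in each with T cell core scaling, and the Nus1 call in SiaLo_PD1pos was lost without SiaLo_PD1pos replicate 1 (adjusted p = 0.0564). Cyb5r3, which supplies electrons to sterol and fatty acid desaturases, was lower in SiaHi_PD1pos (log2 -0.56), and Erg28, a scaffold of sterol demethylation, was higher in SiaLo_PD1pos with TMM scaling (0.52) but not with T cell core scaling (-1.49) or without SiaLo_PD1pos replicate 1 (adjusted p = 0.0522). Idi2, another isopentenyl diphosphate isomerase gene that is named after its values were seen, was also called higher in each. It had 10, 8 and 5 counts in SiaLo_PD1pos, 14, 28 and 21 in SiaHi_PD1pos, and 0 in each SiaHi_PD1neg library. Only its SiaHi_PD1pos counts brought Idi2 past the low-count filter, so its higher calls carry no weight. They are included in the shares of higher calls given above.

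Of 11 further regulators tested, 2 fell in each comparison, or 18.2%, close to the 19.2% and 18.9% of all tested genes. Mylip, an LXR target that degrades lipoprotein receptors, averaged 12.7 ± 0.931 CPM in SiaLo_PD1pos, 11.3 ± 1.50 CPM in SiaHi_PD1pos and 39.5 ± 3.93 CPM in SiaHi_PD1neg, and fell in SiaHi_PD1pos (log2 -1.81) and SiaLo_PD1pos (-1.64). Insig2 was lower in SiaHi_PD1pos (-0.81), and Rxra, the partner of LXR, was lower in SiaLo_PD1pos (-0.89), a call lost without SiaLo_PD1pos replicate 3 (adjusted p = 0.0573). Of 24 further fatty acid genes tested, 7 fell and 2 rose in SiaHi_PD1pos, and 9 fell and 3 rose in SiaLo_PD1pos, with TMM scaling. Lower calls were 29.2% and 37.5% of these 24, against 19.2% and 18.9% of all tested genes. Fads3, the remaining desaturase of the Fads cluster, averaged 1.47 ± 0.397 CPM in SiaLo_PD1pos, 2.86 ± 1.09 CPM in SiaHi_PD1pos and 39.4 ± 12.8 CPM in SiaHi_PD1neg. Cd36, a fatty acid and lipoprotein receptor abundant in macrophages, averaged 27.7 ± 7.26 CPM in SiaLo_PD1pos, 32.9 ± 3.01 CPM in SiaHi_PD1pos and 158 ± 37.7 CPM in SiaHi_PD1neg, and Acsl1, an acyl-CoA synthetase, 10.8 ± 0.149 CPM in SiaLo_PD1pos, 10.5 ± 0.785 CPM in SiaHi_PD1pos and 41.6 ± 7.46 CPM in SiaHi_PD1neg. All 3 fell in both PD-1-positive groups. Hacd3, a dehydratase of very long chain fatty acid synthesis, averaged 144 ± 15.4 CPM in SiaLo_PD1pos, 121 ± 11.7 CPM in SiaHi_PD1pos and 45.1 ± 2.73 CPM in SiaHi_PD1neg, and was higher with TMM scaling in SiaHi_PD1pos (log2 1.42) and SiaLo_PD1pos (1.67), against -0.46 and -0.32 with T cell core scaling.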

How the data were processed

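The deposited table held whole-number counts of reads per gene for 9 libraries, which the authors made with Trim Galore 0.6.5, STAR 2.7.6a and featureCounts 1.6.3 on GRCm38, per the submitters' processing notes. The annotation, strandedness and treatment of reads with several matches are not given in the labels or notes. Libraries came from TRIzol RNA and poly-T selection, per the labels' protocols. All 33 members lay on the same chromosome as in a GRCm38 gene table but 0 matched it in start and end, and the coordinates printed are the deposited ones.

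Genes were kept with filterByExpr (15292 of 56860), scaled with TMM factors (0.928 to 1.05) and tested in 1 fit of all 9 libraries with edgeR 4.0.16 (robust quasi-likelihood F test, no block, R 4.3.3, limma 3.58.1). The 95% intervals used the fit's degrees of freedom. The members, the other pathway lists, the marker lists and the T cell core scaling were chosen with earlier results of these data known. Members are all accounted for, with values per library for those called in any comparison and for Srebf1, and of the other pathway genes up to 4 called per list and comparison with a mean of at least 5 CPM are named by smallest adjusted p. Total counts of 9714020 to 15030442 put every member's mean in every group at 4.34 CPM or more. Replicates differed by more than sampling noise, with chi-square values per degree of freedom of 6.63 to 51.7. The fit was also run on simulated data, in which changes were larger than most given here and the groups shared the same spread. That run says nothing about the smaller calls. Alternatives were other scalings, no low-count filter, DESeq2 1.42.0, limma-voom, fits of 6 libraries, the replicate number as a block, and each library left out.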

Additional observations from a re-analysis of the deposited data

How the results depend on the processing

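Of the 38 calls of single lipid genes, 38 were kept with DESeq2, 37 with DESeq2's size factors, 37 with limma-voom, 35 without composition scaling, 35 in fits of only the 6 libraries compared and 31 without the low-count filter. The calls lost in these were among those of Sqle, Scap, Acly and Srebf2 and, without the filter, also Tm7sf2 and Scd2. Fits that left out 1 library kept 28 to 36 of the 38. Deviations of same-numbered libraries from their group means correlated at -0.022 to 0.156. Differently numbered libraries were not correlated for reference, so whether the replicate numbers pair the libraries cannot be told. The replicate block gave 264, 6200 and 6105 calls over all genes and 0, 18 and 21 among the 33 for SiaLo_PD1pos against SiaHi_PD1pos and then for SiaHi_PD1pos and SiaLo_PD1pos, each against SiaHi_PD1neg, and it lost the Tm7sf2 call.

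The 33 genes gave 0 calls for SiaLo_PD1pos against SiaHi_PD1pos in each alternative run. Over all genes the count there, 214, was 535 without the low-count filter (187 higher, 348 lower), 466 with DESeq2 (126 higher, 340 lower) and 1273 with limma-voom (541 higher, 732 lower), and 105 to 232 with 1 library left out, at 114, 110 and 105 without SiaLo_PD1pos replicate 1, 2 or 3 and 133 without SiaHi_PD1pos replicate 3. With 1 library left out, member calls were 13 to 18 in SiaHi_PD1pos and 14 to 23 in SiaLo_PD1pos against SiaHi_PD1neg, and the member medians were -0.5528 to -0.3145, -0.609 to -0.4356 and, between the PD-1-positive groups, -0.1573 to -0.03317.

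T cell core scaling took the 10 genes as equal in each library, which was not tested. It gave 12599 calls (284 higher, 12315 lower) in SiaHi_PD1pos and 12812 (281 higher, 12531 lower) in SiaLo_PD1pos against SiaHi_PD1neg, so that 2.25% and 2.19% of calls were higher, against 52.3% and 52% with TMM. All 33 members were called lower, with medians of -2.317 and -2.525, and the median between the PD-1-positive groups was -0.217. There, 5.09% of calls over all genes were higher, against 19.2% with TMM. The genes that turned round gave, in SiaHi_PD1pos and SiaLo_PD1pos against SiaHi_PD1neg, Ebp -1.20 and -1.42, Srebf1 -1.58 and -1.95, Stard4 -0.89 and -0.67, Acly -1.57 and -1.56, Acaca -1.36 and -1.52, Fasn -1.40 and -1.66, Hacd3 -0.46 and -0.32, Lbr -1.26 and -1.27, Nus1 -1.44 and -1.58, and, in SiaLo_PD1pos, Erg28 -1.49. The scaling factor itself moves every gene of a comparison by nearly the same amount.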
